A study of Mus musculus with 4 samples.

Results

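The genes described here are 9 members of the retinoid pathway in mouse digits: the binding proteins Crabp1, Crabp2 and Rbp4, the synthesis enzymes Aldh1a1, Aldh1a2 and Aldh1a3, the receptors Rarb and Rarg, and the degrading enzyme Cyp26b1. They are 9 of the 32285 genes counted in each library. They were chosen by name, with their levels measured in these libraries and cell classes already known, so all levels and ratios below are a description and carry no test. The data were 4 single-cell RNA libraries from FVB/NJ wild-type mice, labelled 8 weeks old and pooled from both sexes. One library came from the unamputated, homeostatic middle phalanx (P2), and 1 each from fibrosing tissue collected 12, 17 and 28 days post-amputation (dpa) through that phalanx, an injury that the submitters class as non-regenerative. Dissection was manual and dissociation used collagenase I and trypsin, per the labels' protocols. ACK buffer then lysed erythrocytes, and live cells were sorted with propidium iodide, so cells lost in digestion or sorting are not represented. How many animals went into each pool is not given in the sources used here. With 1 library per group there is no replicate check, and every interval printed is a 95% interval for counting error only.

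Retinoic acid is a small, fat-soluble signal made from vitamin A. Retinol travels in blood bound to RBP4, is oxidised to retinal and then, by the ALDH1A enzymes, to retinoic acid. CRABP1 and CRABP2 carry retinoic acid inside the cell, RARB and RARG bind it in the nucleus and regulate transcription, and CYP26B1 breaks it down. The pathway is known for patterning the limb and for shaping skin, cartilage and bone. Rarb is itself a classic target gene of retinoic acid, switched on through a response element in its own promoter, and its level is therefore often read beside that of the enzymes.

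That element is shown because it is the known basis for reading Rarb as a target, and no value below depends on it. It lies in the RefSeq promoter of Rarb (GRCm38.p6, chr14:16575427-16575726, minus strand), which runs from 250 bases before the transcription start to 50 after it. The sequence is printed 5′ to 3′ in the direction of the gene, with the direct repeat in capitals.
Rarb promoter: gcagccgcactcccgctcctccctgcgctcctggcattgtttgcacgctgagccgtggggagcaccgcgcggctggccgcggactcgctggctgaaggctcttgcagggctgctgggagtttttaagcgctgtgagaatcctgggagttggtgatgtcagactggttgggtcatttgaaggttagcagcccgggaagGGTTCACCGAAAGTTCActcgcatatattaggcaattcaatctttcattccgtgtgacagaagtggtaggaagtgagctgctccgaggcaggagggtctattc
The capitals begin 53 bases before the start and hold 2 receptor recognition sites spaced by 5 bases (DR5). The search took 4 spellings of the recognition site on both strands, as direct repeats spaced by 1, 2 or 5 bases: the common form AGGTCA, the form AGTTCA that ends the repeat printed here, the form GGTTCA that opens it, and a further form, written GGGTCA. Such a DR5 is held by 32 of 32851 RefSeq promoters of this length (0.0974%), a repeat spaced by 2 by 88 (0.268%) and a repeat spaced by 1 by 73 (0.222%). Promoters of 7 of the 9 members were found by symbol, and that of Rarb was the only one with a match; for the other 6, these letters are not in this window. A match describes letters and does not show that a receptor was bound there.

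After filters, 34951 of 50625 barcodes were kept. The unamputated, 12, 17 and 28 dpa libraries gave 10394, 6514, 7918 and 10125 of them, with median depths of 11630, 9545, 8511 and 6654 UMIs (unique molecular identifiers) per cell. Between 19 and 87 barcodes were shared by any pair of libraries, at most 0.5704% of a library. All 4 libraries went against the label of pooled sexes. At 12 dpa, 3534 of 6514 cells (54.25%) were called female from Xist and Y-linked genes and none male, while the other 3 libraries held 4625 to 8091 male-called cells and at most 1 female-called cell. A difference at 12 dpa and a difference between the sexes therefore cannot be told apart, and 17 and 28 dpa are the comparisons between libraries of the same called sex. Cells were clustered without the 9 genes, and clusters were named from marker genes as fibroblast-like and so on. The digit tissue showed its marker-defined stromal, epidermal, vascular, nerve and immune classes, but osteoblast-like cells were nearly absent at 12 dpa (5 cells, against 253 to 435 in the other libraries). B lineage-like cells numbered 0 at 12 dpa (100 to 196 elsewhere) and monocyte-like cells 13 (30 to 180). Neutrophil-like cluster 10 was at 0 at 12 and 28 dpa, so neutrophil-like cells there came from cluster 11.

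Each gene had its own set of cells, and most were highest in mesenchymal ones. Levels are given as CPM, the UMIs of the gene per 1000000 UMIs summed over all cells of a class or cluster in 1 library, and only for sums of at least 50 cells. The assay counts 3′ ends, so levels are compared for 1 gene between cells and never between genes. The heat map of levels by class shows the division. Crabp1 was highest in tenocyte-like clusters 17 and 19 in the first 3 libraries and in Schwann-like cells at 28 dpa, Crabp2 in cluster 19 and fibroblast-like cluster 16, and Rbp4 in osteoblast-like cells and in tenocyte-like clusters 25 and 19. Aldh1a2 and Rarb were both highest in 1 small fibroblast-like cluster, number 18, in the 3 libraries where it held 50 cells. Cyp26b1 was highest in pericyte-like cells in the unamputated, 17 and 28 dpa libraries and in tenocyte-like cluster 17 at 12 dpa, whereas Rarg was spread over nearly every class.

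**Figure D1:**
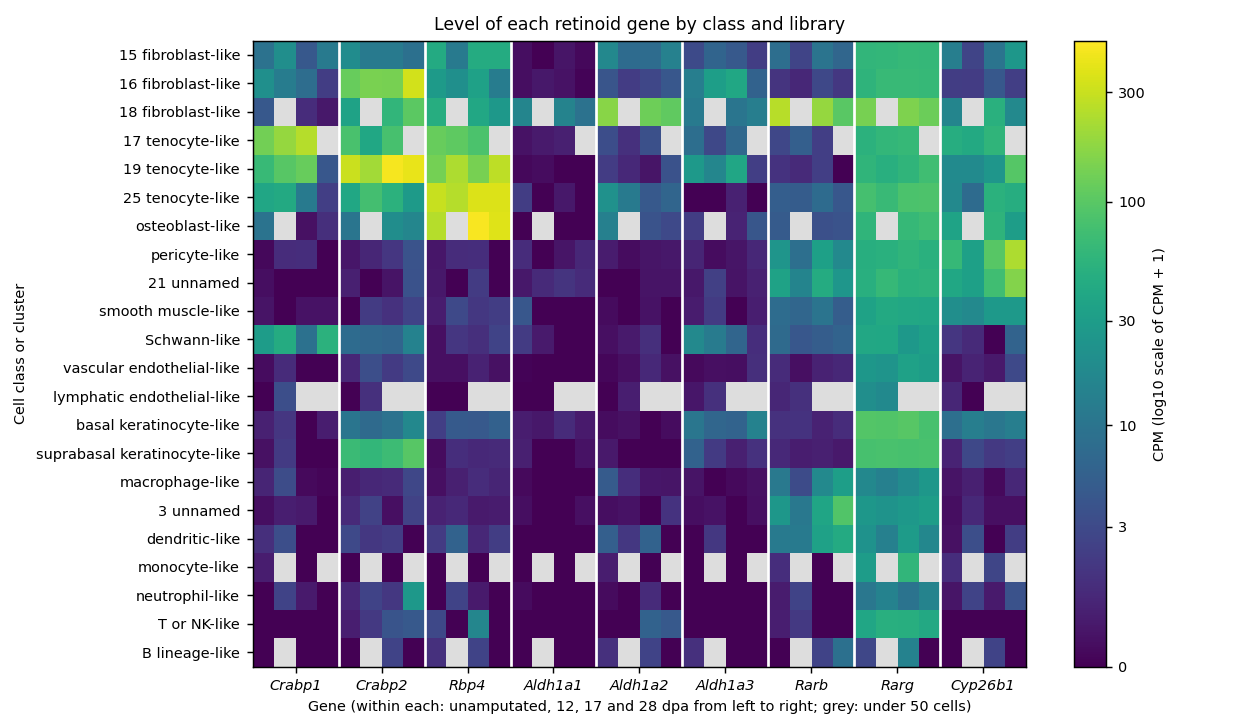
Level of each of the 9 genes (columns, 4 libraries within each gene) in cell classes and clusters (rows), in CPM on a log10 scale of CPM + 1; grey cells had fewer than 50 cells. Rarg fills its columns in most classes, while Aldh1a2 and Rarb have their brightest cells in cluster 18 and Cyp26b1 in the pericyte-like row at 28 dpa.

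The fibroblast-like and tenocyte-like classes are mixtures whose make-up differed between libraries, and this bears on every class-level value. Fibroblast-like cells comprised cluster 15 (led by Lsamp, Hpse2, Igf1 and Pi16), cluster 16 (Ccn3, Mfap5, Clec3b) and cluster 18 (Hcn4, Itih5, Sbspon, Foxd1). Cluster 16 made up 21.1%, 54.8%, 20.2% and 49.8% of them in the unamputated, 12, 17 and 28 dpa libraries, and cluster 18 made up 16.7%, 14.6%, 23.4% and 12.1%. Tenocyte-like cells comprised cluster 17 (Kif26b, Col24a1), cluster 19 (Fmod, Thbs4, Scx) and cluster 25 (Chad, Comp). All 7 tenocyte markers were detected in cluster 17 but none was among its leading genes, and that cluster held 430, 692, 101 and 14 cells in the 4 libraries. Values are therefore given by cluster first.

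Among the binding proteins, Crabp1 lay mostly in tenocyte-like cells in the first 3 libraries, with 84.6%, 95.3% and 85.2% of its UMIs, and was close to absent there at 28 dpa. Unnamed cluster 29 then held 205 of the 406 Crabp1 UMIs (50.5%) and tenocyte-like cells 29 (7.14%). Cluster 17, named without a tenocyte marker among its leading genes, held 1433 of the 2061 tenocyte-like Crabp1 UMIs of the unamputated library. Crabp1 stood there at 132 CPM in the unamputated library, 187 at 12 dpa and 249 at 17 dpa, where 101 cells remained. At 17 dpa 29 of these cells held a Crabp1 UMI, and the highest held 15.2% of the total. In cluster 19, which held over 50 cells in every library, Crabp1 stood at 64.5 (58.6 to 70.8), 99.6 (95.3 to 104), 117 (107 to 127) and 4.36 CPM. The first 3 libraries thus lay within 2-fold of each other, and the 28 dpa library lay far below all of them, with 16 UMIs in 338 cells against 441 in 255 unamputated cells. That is 12.2-fold lower than unamputated on the log2(CPM + 1) scale used for every fold (log2 ratio -3.61, interval -4.71 to -3.17).

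Cluster 25 was lowest at 28 dpa as well, Crabp1 being at 38.7, 42.6, 11.7 and 2.18 CPM, the last from 2 UMIs. After every cell was thinned to 2000 UMIs, 7.54%, 11.3%, 11.2% and 1.19% of cluster 19 cells held a Crabp1 UMI, against 38.8%, 36.7%, 29.8% and 2.96% at full depth. Neutrophil-like cells, which should lack the gene and so show the level of free RNA, held 0 of 859, 0 of 74 and 0 of 289 thinned cells in the unamputated, 12 and 17 dpa libraries, with limits of 0.349%, 4.05% and 1.04%. At 28 dpa fewer than 50 neutrophil-like cells reached 2000 UMIs. Outside tenocyte-like cells, Crabp1 was found in Schwann-like cells at 30.2, 45.0, 9.27 and 53.2 CPM, with 28 dpa the highest. The 17 dpa value there rests on 7 UMIs in 3 cells.

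Crabp2, which hands retinoic acid to the nuclear receptors, differed in the other direction. In fibroblast-like cluster 16 it stood at 117 (106 to 128), 143 (127 to 161), 141 (131 to 150) and 325 CPM (316 to 335). The 3 earlier libraries were alike in level and 28 dpa stood apart, 2.77-fold above unamputated. The UMIs were not the work of a few cells: of 1212 cells in cluster 16 at 28 dpa, 617 held a Crabp2 UMI and the highest cell held 1.37% of the total, although at 12 dpa a single cell held 21.6%. Cluster 18 showed the same order at 34.6, 59.2 and 103 CPM in the unamputated, 17 and 28 dpa libraries. Cluster 15 went the opposite way, Crabp2 being at 19.6 CPM in the unamputated library and 11.6, 11.6 and 8.90 at 12, 17 and 28 dpa.

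In tenocyte-like cluster 19, Crabp2 stood at 304, 209, 463 and 405 CPM, so the 12 dpa library was the lowest and the 17 dpa library the highest. Cluster 25 held 39.8, 77.4, 53.4 and 28.4 CPM, lowest at 28 dpa. Suprabasal keratinocyte-like cells held 68.5, 60.8, 69.7 and 99.0 CPM. Summed over whole classes or unnamed clusters, Crabp2 was highest at 28 dpa in each of the 6 in which all 4 libraries could be compared. Within clusters 13, 15, 19 and 25, which are parts of these classes, 28 dpa was not the highest. Among the 6 were neutrophil-like cells, where 7 UMIs in 180 cells at 28 dpa gave 26.6 CPM. Free RNA in that library was not separated from expression, and its part in the differences was not tested. The share of thinned cluster 16 cells with a Crabp2 UMI was 20.9% (14.7 to 28.4), 13.8% (8.42 to 21), 19.5% (15.5 to 24.0) and 26.5% (24.1 to 29.1), with 28 dpa the highest as for the level. The first 3 libraries stood in another order than by level, and the intervals of the unamputated library and 28 dpa overlapped.

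Crabp1 and Crabp2 shared clusters without being found together more often than the product of their shares in each library. Of 252 thinned unamputated cells of cluster 19, 19 held Crabp1, 81 held Crabp2 and 8 held both, where the product of the shares gives 6.11. At 12 dpa 24 cells held both (28.7 from the product) and at 17 dpa 14 (11.1 from the product). The counts lay on both sides of the product, and in cluster 17 the cells with both were fewer, 2 where the product gives 6.11 in the unamputated library and 4 where it gives 6.37 at 12 dpa. Such counts are small and share the depth of the cell.

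Rbp4, best known as the liver-made plasma carrier of retinol, was a gene of osteoblast-like and tenocyte-like cells in the digit. Osteoblast-like cells held 247 CPM (234 to 260), 475 (458 to 493) and 373 (352 to 395) in the unamputated, 17 and 28 dpa libraries. Both injured libraries lay above the unamputated one, by less than 2-fold. After thinning, 32.4%, 43.9% and 39.6% of these cells held an Rbp4 UMI, and neutrophil-like cells at most 1 in 74.

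In tenocyte-like cluster 25 Rbp4 stood at 293, 250, 360 and 362 CPM, and in cluster 19 at 134, 234, 138 and 267 CPM. The 17 dpa library of cluster 19 thus matched the unamputated one within counting error, and 12 and 28 dpa were higher. Fibroblast-like cluster 15 held Rbp4 at 44.1, 11.6, 44.8 and 45.2 CPM, even but for 12 dpa, where 9 UMIs in 73 cells gave a 3.59-fold lower level. Cluster 16 was lower at 28 dpa, with Rbp4 at 28.9, 21.3, 34.4 and 12.6 CPM.

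**Figure D2:**
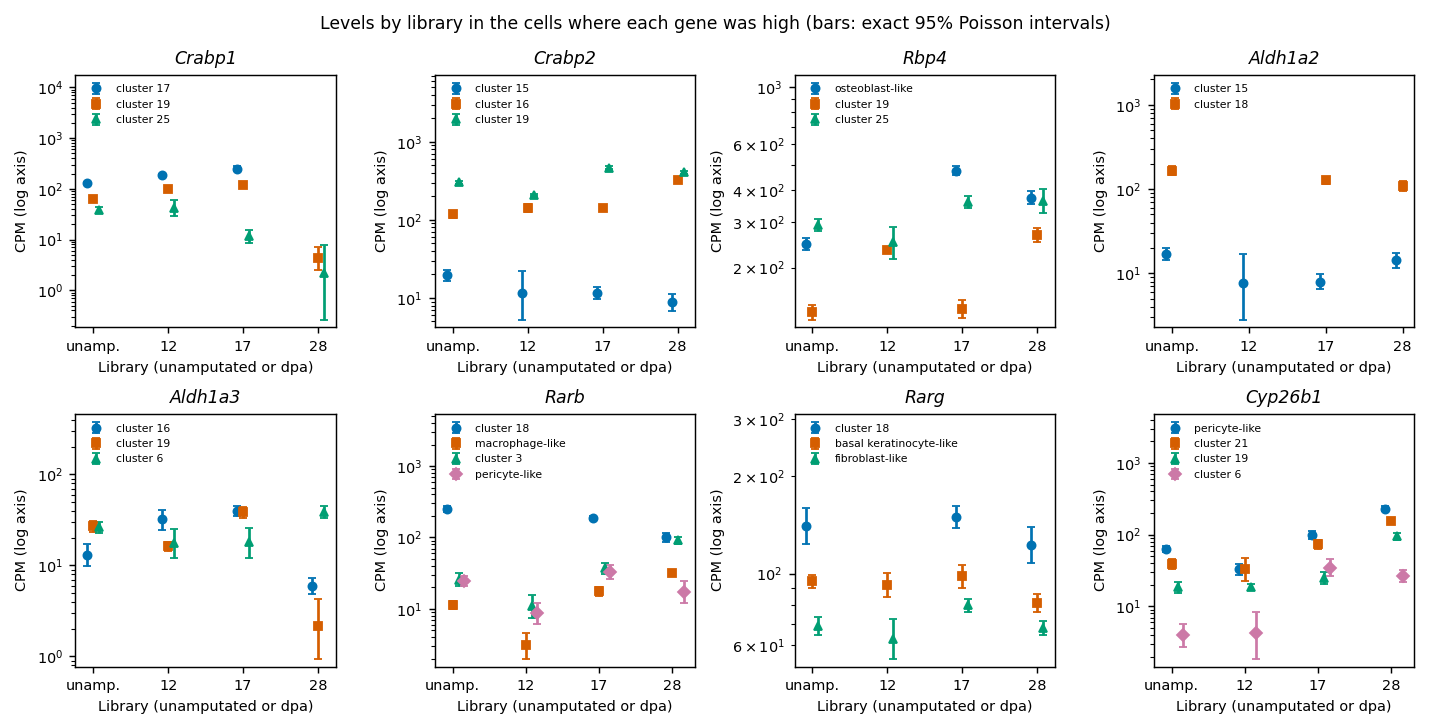
CPM on log axes for 8 of the 9 genes in the clusters and classes where each was high, by library; points are sums over the cells of 1 library and bars exact 95% Poisson intervals for counting error only. Crabp1 drops to 4.36 CPM in cluster 19 at 28 dpa, while Crabp2 in cluster 16 and Cyp26b1 in pericyte-like cells reach their highest values there.

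The 3 synthesis enzymes differed in how widely they were found. Aldh1a1 was under 5 CPM in every class, and cluster 18 alone exceeded that, at 15.9, 15.2 and 9.43 CPM in the unamputated, 17 and 28 dpa libraries with overlapping intervals. Aldh1a2, the main retinoic acid-making enzyme of the embryonic trunk, was concentrated in the same cluster at 166 CPM (147 to 186), 127 (116 to 138) and 109 (95.2 to 125). The order was downward across the 3 libraries, and the 2 injured libraries overlapped each other but not the unamputated one. The other fibroblast-like clusters held far less Aldh1a2, cluster 15 standing at 17.1, 7.70, 7.94 and 14.3 CPM. The share of thinned cluster 18 cells with an Aldh1a2 UMI was 22.4% (15.2 to 31.1), 13.3% (10.2 to 17.0) and 9.93% (6.70 to 14.0), and 0 of the thinned neutrophil-like cells held one. At 12 dpa cluster 18 held 35 cells, too few for a level, with 1 UMI of Aldh1a2, against 292 in 118 unamputated cells.

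Aldh1a3, the form of the enzyme usually linked to epithelia, was low and patchy. Basal keratinocyte-like cluster 6 (led by Krt15, Krt17 and Lgr5) held 26.3, 17.8, 18 and 38.8 CPM, and its UMIs came from 8 to 37 cells per library. Tenocyte-like cluster 19 held 26.9, 16.2, 38.3 and 2.18 CPM of Aldh1a3, and 28 dpa was the lowest with 8 UMIs, an 8.78-fold difference from unamputated. In cluster 16 the values were 13.2, 32.0, 39.9 and 5.98 CPM. There, 188 of the 235 UMIs at 17 dpa (80.0%) came from 1 cell, and without that cell the level was 8.02 CPM, below the unamputated 13.2. The high value at 17 dpa thus rests on 1 cell. At 12 dpa the highest cell held 38.1% of the Aldh1a3 UMIs of cluster 16, and the level without it was 20.1 CPM. Schwann-like cells held 17.8, 12.2, 6.62 and 1.24 CPM, the last 2 from 5 UMIs and 1 UMI.

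Of the receptors, Rarg was the most even of the 9 genes. It stood at 94.6, 92.1, 98.1 and 81.0 CPM in basal keratinocyte-like cells and at 68.9, 62.9, 79.9 and 67.8 CPM in fibroblast-like cells. Cluster 18 was the highest fibroblast-like cluster for Rarg too, at 141, 150 and 123 CPM in the unamputated, 17 and 28 dpa libraries, with overlapping intervals, while clusters 15 and 16 lay between 56.0 and 65.5 CPM in all 4 libraries. No library was highest in more than 5 of the 14 classes and unnamed clusters that could be compared. RARG is the main RAR of skin, and 16.3%, 16.4%, 17.1% and 13.0% of thinned basal keratinocyte-like cells held a UMI, against 2.44% to 4.05% of neutrophil-like cells.

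Rarb, by contrast, was high in few cells and differed widely between libraries. Cluster 18 held 254 CPM (231 to 278), 188 (175 to 202) and 100 (86.9 to 115) in the unamputated, 17 and 28 dpa libraries. The 3 intervals do not overlap, and the 28 dpa level was 2.52-fold below the unamputated one. Thinned cells with a Rarb UMI were 33.6% (39 of 116), 23.1% (95 of 412) and 14.9% (42 of 282), in the same order. The exact intervals of neighbouring shares overlap, unlike those of the levels. At full depth the UMIs came from 66, 180 and 72 cells, and intervals for counting error do not allow for such clumping. At 12 dpa the 35 cells of cluster 18 held 5 Rarb UMIs, against 447 in the 118 unamputated cells.

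Rarb and Aldh1a2 were found together more often than the product of their shares. In thinned cluster 18 cells, 21 of 116 unamputated cells held both where the product gives 8.74, as did 31 of 412 at 17 dpa (12.7) and 16 of 282 at 28 dpa (4.17). The excess was seen in each of the 3 libraries. Thinning makes the totals of cells equal, but cluster 18 may itself hold unlike cells, so this remains a description of joint detection.

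At 28 dpa, immune cells ran the other way for Rarb. Macrophage-like cells held 11.4 (9.85 to 13.0), 3.09 (2 to 4.56), 17.6 (15.2 to 20.3) and 31.7 CPM (28.6 to 35.0), so 12 dpa was the lowest and 28 dpa the highest, with no overlap between any pair. Their make-up differed, since cluster 0 made up 93.1% of unamputated and cluster 23 made up 85.7% of 28 dpa macrophage-like cells. Within cluster 0 Rarb stood at 11, 3.16, 22.6 and 25.3 CPM, and within cluster 23 at 16, 11.6 and 32.8 CPM in the unamputated, 17 and 28 dpa libraries. The 28 dpa level was the highest inside each cluster as well, although in cluster 0 its interval overlapped that of 17 dpa.

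Unnamed cluster 3, a macrophage-related cluster led by Acp5 and Trem2, held Rarb at 25.8, 11.1, 37.2 and 92.3 CPM, and dendritic-like cells held 12.0, 12.1, 33.7 and 44.0 CPM. The cluster 3 interval at 28 dpa, 82.3 to 103, lies above those of the other 3 libraries. Pericyte-like cells held 24.4, 8.70, 33.3 and 17.5 CPM of Rarb, and unnamed cluster 21 (led by Id4 and Adra2a) held 34.7, 15.7, 45.0 and 25.2. Both had their lowest value at 12 dpa and their highest at 17 dpa. Over all 8 classes and unnamed clusters compared, Rarb was lowest at 12 dpa in 6, the library that also differed in called sex. Rarb overlaps Top2b and Gm48162 on the opposite strand, and the strand setting of the counting is not given in the sources used here.

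Cyp26b1, which removes retinoic acid, reached its highest levels at 28 dpa, in pericyte-like cells and in unnamed cluster 21. Tenocyte-like cells nevertheless held 36.8% of its UMIs in the unamputated library and 73.1% at 12 dpa, against 21.7% and 11.6% for pericyte-like cells. In tenocyte-like cluster 17 it stood at 47.0, 42.5 and 58.0 CPM in the unamputated, 12 and 17 dpa libraries. Pericyte-like cells held 63.5 CPM (426 UMIs) in the unamputated library, 33.1 at 12 dpa, 99.1 at 17 dpa and 231 at 28 dpa. The 28 dpa level stood 3.6-fold above the unamputated one (log2 ratio 1.85, 1.67 to 2.06). Cluster 21 repeated the order with 39.4, 33.6, 73.7 and 156 CPM, a 3.89-fold difference at 28 dpa. Vascular smooth muscle-like cells held 20.6, 17.5, 27.8 and 27.1 CPM, within 1.33-fold of unamputated in every injured library.

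The share of cells was in the same order: 7%, 5.18%, 11.6% and 22.5% of thinned pericyte-like cells held a Cyp26b1 UMI, and 0 of 859, 0 of 74 and 1 of 289 neutrophil-like cells in the first 3 libraries. Depth differed too, the median pericyte-like cell holding 9364, 6311, 5220 and 3692 UMIs, while the shares come from cells thinned to equal depth. Tenocyte-like cluster 19 also stood apart at 28 dpa, with Cyp26b1 at 18.4, 18.7, 25 and 95.3 CPM, 4.96-fold above unamputated. Cluster 25 held 17.6, 7.74, 52.2 and 46.9 CPM, and basal keratinocyte-like cluster 6 held 4.01, 4.31, 34.8 and 26.7, both low in the first 2 libraries and higher in the last 2. The cluster 6 UMIs came from 13, 5, 14 and 50 cells, and the highest cell held 50% of them at 12 dpa and 25% at 17 dpa. The other basal keratinocyte-like clusters went the opposite way, cluster 5 holding Cyp26b1 at 13.0, 16.4, 2.83 and 6.23 CPM and cluster 13 at 9.70, 19, 1.66 and 4.59. The class as a whole stood at 8.72, 13.3, 10.8 and 13.2 CPM, within 2-fold of unamputated in each injured library. In cluster 18 Cyp26b1 was at 15.9, 50.4 and 17.9 CPM in the unamputated, 17 and 28 dpa libraries.

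**Figure D3:**
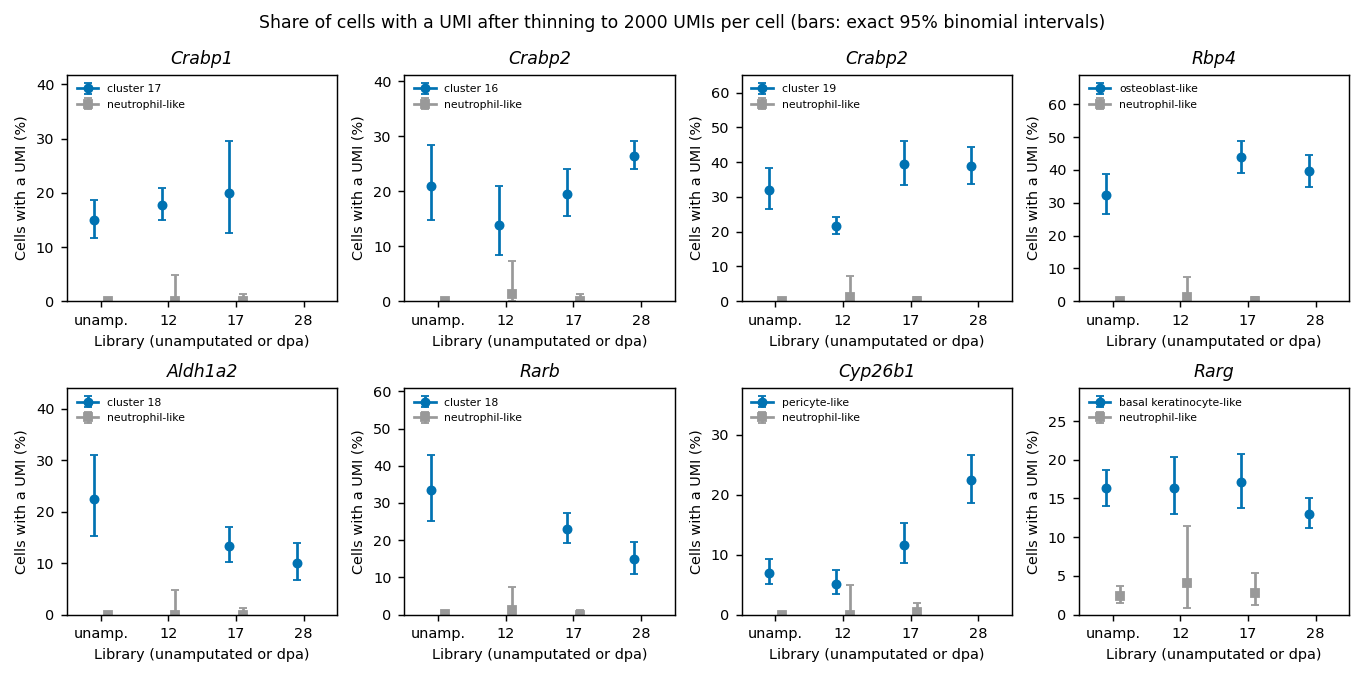
Percentage of cells with at least 1 UMI of the gene after thinning each cell to 2000 UMIs (blue), beside neutrophil-like cells (grey), by library, with exact 95% binomial intervals; points with fewer than 50 thinned cells are left out. The neutrophil-like shares stay at or below 4.05%, and the Cyp26b1 share in pericyte-like cells reaches 22.5% at 28 dpa.

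Cluster 18 held more of the pathway than the members. Among 50 other retinoid genes listed by role, 28 reached 5 CPM in at least 1 of clusters 15, 16 and 18 in each of the unamputated, 17 and 28 dpa libraries. Of these, 6 were at least 2-fold higher in cluster 18 than in both other fibroblast-like clusters in all 3 libraries, and 1, Dhrs9, was lower. Of the 9 members, 3 (Aldh1a1, Aldh1a2 and Rarb) were higher by the same rule and none lower. Over all 10743 genes tested so, 6.4% were higher and 2.64% lower. Members and listed genes had no part in forming the clusters, but cluster and list were both known from these cells, so the counts describe and test nothing.

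Stra6, the cell-surface receptor that takes up retinol from RBP4, was higher in cluster 18 by the widest margin of the genes described here. It stood at 224, 203 and 187 CPM in cluster 18 and at 0.509 to 1.91 CPM in clusters 15 and 16 of the same libraries. Rdh10, which oxidises retinol to retinal, stood at 144, 106 and 116 CPM in cluster 18. Dhrs3, which returns retinal to retinol and is itself induced by retinoic acid, stood at 127, 133 and 76.9 CPM. Rdh5 stood at 21, 22.1 and 16.9 CPM, and Tgm2, a textbook retinoic acid response gene, at 58.4, 55 and 58.6. Dhrs3 was lowest at 28 dpa, as Rarb was, and Tgm2 was level across the 3 libraries. The listed response genes Rarres1, Rarres2 and Nrip1 did not pass the rule.

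For the class-level comparison, each injured library was set against the unamputated one, which all 3 comparisons share. A gene counted as differing when its fibroblast-like levels were at least 2-fold apart, with 5 CPM in the higher library, which 8 of the 9 members reached (Aldh1a1 did not). At 12 dpa, Crabp2 (log2 ratio 1.23) and Aldh1a3 (2.08) were higher, where 1.37% of all 10829 genes were. Rbp4 (-1.21), Aldh1a2 (-2.92), Rarb (-3.36) and Cyp26b1 (-1.17) were lower, where 7.09% of all genes were. Thus 6 of 8 members differed, but the members were chosen with these values known, and the comparison rests on 239 cells of the other called sex with another cluster make-up. The count was 2 with looser cell filters and 3 without doublet removal, with each cell named alone, with pooled connective-tissue classes and with thinned cells, and in these settings Crabp2, Rbp4 and Cyp26b1 were no longer past 2-fold, whereas Aldh1a2 and Rarb were. Aldh1a3 was past it there with thinned cells only, and Crabp1 was newly past it, as higher, without doublet removal (1.11), with each cell named alone (1.22) and with pooled classes (1.09). Within cluster 16, the largest of them, only Aldh1a3 remained past 2-fold, and without the highest cell of each library its levels there were 20.1 against 10.3 CPM, under 2-fold on the scale used. In cluster 15 alone, with 73 cells at 12 dpa, 5 members were past it, Crabp1 higher and Rbp4, Aldh1a2, Rarb and Cyp26b1 lower. There the intervals of Aldh1a2 (-2.62 to 0.00642) and Rarb (-4.78 to 0.204) included no difference, and no share over all genes was computed for that cluster. Without cluster 18 the class kept the same 6, with smaller ratios for Aldh1a2 (-1.59) and Rarb (-1.55).

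At 17 dpa, Aldh1a3 (1.01) was higher and Crabp1 (-1.13) lower, against 0.593% and 1.5% of all 10785 genes. Without the highest cell of each gene the Aldh1a3 ratio was 0.08, so Crabp1 alone was left. Crabp1 was in turn not past 2-fold without doublet removal, at Leiden resolution 2, with pooled classes, with a pseudocount of 5 CPM and in cluster 15 alone. At 28 dpa, Crabp2 (2.11) was higher, against 2.2% of all 10801 genes, and Crabp1 (-1.19) and Rarb (-1.67) were lower, against 6.51%. Without cluster 18 the Rarb ratio was -0.73, and it was under 2-fold as well with stricter cell filters, at Leiden resolution 2, with each cell named alone, with pooled classes and in cluster 15 alone. Crabp1 was under 2-fold as a mean over cells, with a pseudocount of 5 CPM, with thinned cells and in cluster 15 alone. In that cluster its ratio had the opposite sign (0.28, interval -0.165 to 0.776). In cluster 15 alone Crabp2 had the opposite sign at 28 dpa (-1.06), while cluster 16, which formed 49.8% of the class there, carried the higher level.

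**Figure D4:**
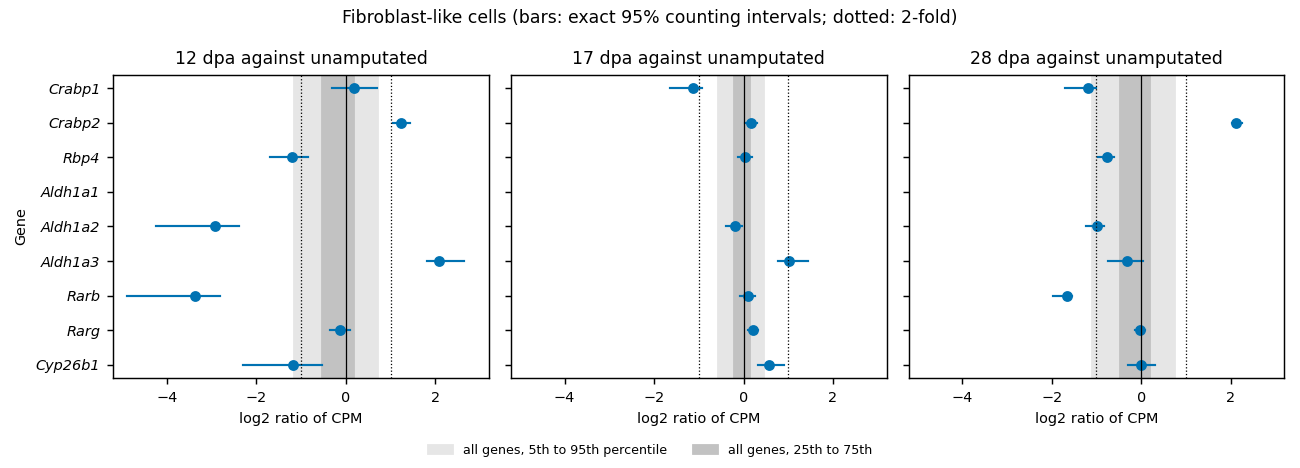
Log2 ratio of CPM of each member in fibroblast-like cells at 12, 17 and 28 dpa against the unamputated library (points, with exact 95% counting intervals), over the 25th to 75th and 5th to 95th percentiles of all genes (dark and light grey); dotted lines mark 2-fold and Aldh1a1 was under 5 CPM. Rarb lies at -3.36 at 12 dpa and -1.67 at 28 dpa, Crabp2 at 2.11 at 28 dpa, and the all-gene band is narrowest at 17 dpa.

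In tenocyte-like cells, 7 of the 9 members reached 5 CPM. At 12 dpa none was higher and Aldh1a2 was lower, where 0.495% of 10509 genes were higher and 1.54% lower. At 17 dpa the same 1 gene was lower, against 1.37% higher and 0.951% lower of 10625. Cluster 25, where Aldh1a2 stood at 22.4 CPM unamputated, made up 28% of the unamputated, 3.21% of the 12 dpa and 53% of the 17 dpa class. Within it the Aldh1a2 log2 ratio was -0.89 at 12 dpa (-2.11 to 0.0317) and -2.02 at 17 dpa (-3.02 to -1.53). The 12 dpa difference was thus under 2-fold there, with an interval that included no difference. At 28 dpa, Crabp2 (1.21) and Cyp26b1 (1.48) were higher, against 3.95% of 10686 genes, and Crabp1 (-3.67) and Aldh1a3 were lower, against 5.74%. By then cluster 17 held 14 cells of the class (2.82%), but the directions of Crabp1, Aldh1a3 and Cyp26b1 also held within cluster 19, the Crabp2 difference there being 1.33-fold. In cluster 25, 29.2% of the class at 28 dpa, Crabp2 had the opposite sign (-0.47, interval -1.14 to 0.107). The higher Crabp2 of the class was thus not past 2-fold within either cluster.

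Of the 50 other pathway genes, 29 reached 5 CPM in fibroblast-like cells. At 12 dpa none was higher and 5 were lower (Stra6, Lpl, Dhrs3, Rxrg and Ncoa1), where 1.37% of all genes were higher and 7.09% lower, with a median log2 ratio of -0.263 beside -0.184 over all genes. At 17 dpa 1 was lower (Rxrg), where 1.5% of all genes were, with a median of -0.027 beside -0.0418. At 28 dpa 2 were lower (Lpl and Rxrg), where 6.51% of all genes were, with a median of -0.343 beside -0.14. Stra6 stood at 30.1, 2.53, 37.8 and 17.2 CPM and Dhrs3 at 29, 12.3, 39.7 and 17.1. Lpl, a lipase that acts on the fats of lipoproteins, retinyl esters among them, stood at 124, 47.4, 120 and 40.0 CPM, and Ncoa1, a receptor coactivator, at 130, 60.4, 123 and 81.5. For Lpl and Dhrs3 the 12 dpa differences were smaller within clusters, Lpl standing at 121 CPM against 148 unamputated in cluster 15 and at 23.9 against 15.3 in cluster 16. Dhrs3 stood at 16.7 against 16.5 CPM in cluster 15 and at 8.64 against 10.3 in cluster 16. Ncoa1 stood at 82.2 against 156 CPM in cluster 15 and at 53.9 against 67.6 in cluster 16, under 2-fold in both. Stra6 lay almost wholly in cluster 18, with 395 unamputated UMIs there, 10 in cluster 15 and 3 in cluster 16. Its 12 dpa class value thus depends on the 35 cells of cluster 18, too few for a level. At 28 dpa cluster 18 held Stra6 at 187 CPM against 224 unamputated. In tenocyte-like cells, 1 of 25 listed genes was higher at 12 dpa (Fabp5), where 0.495% of all genes were, with a median of -0.158 beside -0.142. At 17 dpa 1 of 25 was lower (Lpl), where 0.951% of all genes were, with a median of 0.0591 beside -0.023. At 28 dpa 2 of 27 were higher (Dhrs7 and Rarres1) and 1 lower (Lpl), where 3.95% and 5.74% of all genes were, with a median of -0.0669 beside -0.102.

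For each member, the 3 genes most alike in pattern were found by Pearson correlation of log2(CPM + 1) over 67 sums, each of 1 class or unnamed cluster in 1 library, among 16914 genes. The sums share libraries and depth, so the values are descriptions without p-values. Crabp1 was most like Cxcl5 (0.858), Kctd8 (0.849) and Aqp5 (0.837), and Crabp2 like Gjb5 (0.817), Ephb2 (0.805) and 9330154J02Rik (0.803). Rbp4 was most like Galnt5 (0.935), Omd (0.917) and Clec11a (0.916). Among the enzymes, Aldh1a1 was most like Plcxd3 (0.715), Iyd (0.69) and Arhgap20 (0.651), Aldh1a2 like Fgf10 (0.777), Hand2os1 (0.74) and Gm16263 (0.733), and Aldh1a3 like Lypd6 (0.837), Sfrp1 (0.827) and Gm43948 (0.81). Rarg was most like Rxra (0.809), whose product is the partner with which RARs bind DNA, Slc39a6 (0.795) and Prkci (0.785). Rarb was most like Nostrin (0.748), 8030453O22Rik (0.745) and Epb41l1 (0.718), and Cyp26b1 like Ddit4l (0.895), Steap2 (0.88) and Itga10 (0.878). Although Rarb and Aldh1a2 shared their highest cluster, their correlation over all sums was 0.174, and the highest between members was 0.678, for Crabp1 and Aldh1a3.

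By GENCODE M21 (GRCm38), matched by Ensembl ID, Crabp1 lies at chr9:54764748-54773110 and Aldh1a2 at chr9:71215789-71296243, both on the plus strand. Crabp2 lies at chr3:87948666-87953376 (plus), Rarb at chr14:16430839-16819156 (minus) and Rarg at chr15:102234938-102257517 (minus). Rbp4 lies at chr19:38116629-38125281 (minus) and Aldh1a1 at chr19:20492715-20643465 (plus), the latter overlapped on the other strand by C730002L08Rik. Aldh1a3 lies at chr7:66390890-66427517 and Cyp26b1 at chr6:84571414-84593908, both on the minus strand.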

How the data were processed

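Per the labels' protocols, 10x Chromium chemistry (3′, v3) was used for all 4 samples. The deposited matrices hold UMI counts, whole numbers per gene and cell, from Cell Ranger 7.1.0, and the build was mm10, per the submitters' processing notes. The annotation, cell calling, and intron and strand settings are not given in the sources used here. The deposited counts held 92313847 to 197140774 UMIs per library.

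Cells with at least 1000 UMIs, 500 genes and at most 10% mitochondrial UMIs were kept. Scrublet's highest scores were removed as doublets at 0.8% per 1000 barcodes (7.05% to 12.8% of barcodes; its own threshold would mark 2.23% to 4.50%). Clustering used scanpy 1.11.5 on 2000 variable genes, 30 components, 15 neighbours and Leiden resolution 1, without the members, the listed pathway genes, sex-linked and mitochondrial genes. A cluster took the name of a class with at least 3 markers, each in at least 25% of its cells, unless another class had more markers among its 10 leading genes or its depth was very low. Cells were called male from at least 2 UMIs of Y-linked genes without Xist, and female the other way round.

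CPM came from summed counts, and log2 ratios used a pseudocount of 1 CPM. Intervals are exact Poisson and Clopper-Pearson 95% intervals, and a count of 0 allows up to 3 counts. No test was run, since each group held 1 library. Members, gene lists and alternatives were chosen with earlier results of these data known. Named genes were all members, the 3 genes most like each, and listed genes of at least 20 CPM past 2-fold; the rest were named after their values were seen. The values of 1 listed gene are not reported here. Simulated counts with 200 changed genes were used to check the ratios: of changed genes of at least 50 CPM, 93.2% to 100% were recovered within 0.2 of the true log2 ratio. Every member past 2-fold in fibroblast-like cells was under 50 CPM in the unamputated library (Crabp2, the highest, at 48.9), so this recovery does not cover them. The simulated sums were Poisson counts, so UMIs concentrated in few cells were not simulated.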

Additional observations from a re-analysis of the deposited data

Results flagged for a closer look

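Rarb differed from the unamputated library in opposite directions in different cells at 28 dpa. Its log2 ratio was -1.67 in fibroblast-like cells, and 1.40 in macrophage-like cells, 1.80 in unnamed cluster 3 and 1.80 in dendritic-like cells. The difference between these ratios was not tested, since each rests on 1 library per group. The fibroblast-like value has the same sign within cluster 18, where most of its UMIs lay, and the macrophage-like value has the same sign within clusters 0 and 23. In fibroblast-like cluster 15 the ratio was -0.27, with an interval of -0.871 to 0.251. Cluster 18 made up 16.7% of unamputated and 12.1% of 28 dpa fibroblast-like cells, so the class value also reflects make-up.

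Cells called female made up 54.25% of the 12 dpa library and at most 1 cell in any other, against labels of pooled sexes. Whether the low Rarb values at 12 dpa go with sex or with time cannot be told apart.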

How the results depend on the processing

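The count of members at least 2-fold from unamputated in fibroblast-like cells was 6, 2 and 3 in the 12, 17 and 28 dpa libraries. The 12 dpa count was 2 with looser cell filters, 3 without doublet removal, with each cell named alone, with pooled connective-tissue classes and with thinned cells, and 1 in cluster 16 alone, but 5 in cluster 15 alone and 6 without cluster 18. At 17 dpa it was 0 without doublet removal, at Leiden resolution 2, with pooled classes, with a pseudocount of 5 CPM and for genes of at least 20 CPM. It was 1 there with each cell named alone, as a mean over cells, with thinned cells, without the highest cell and in cluster 15 alone, and at 28 dpa it was 1 in cluster 15 alone. Ratios whose counting interval held 0, such as Rarg (-0.13) and Crabp1 (0.19) at 12 dpa, changed sign in some settings and are not listed. Of the other log2 ratios, those that changed sign at 12 dpa were Cyp26b1 (0.14 with looser filters, 0.05 with cells named alone), Rbp4 (0.57 with cells named alone, 0.43 pooled) and Crabp2 (-0.72 in cluster 15). At 17 dpa they were Aldh1a2 (0.02 with looser filters and without doublet removal, 0.21 with cells named alone, 0.11 pooled), Aldh1a3 (-0.90 without doublet removal, -0.06 at resolution 2) and Crabp2 (-0.01 thinned, -0.71 in cluster 15). Cyp26b1 changed sign there too (-0.17 with looser filters, -0.11 with cells named alone, -0.22 without cluster 18, -0.39 in cluster 15). At 28 dpa, cluster 15 alone gave 0.28 for Crabp1, -1.06 for Crabp2 and 0.03 for Rbp4. The cause was not tested. At 12 dpa, Aldh1a2 ranged from -3.31 to -1.06 and Rarb from -4.09 to -1.39 over the other settings; in cluster 16 both were under 5 CPM. Settings by single cluster and without the highest cell were chosen after seeing the data. No paired analysis was possible because each group held 1 library, and no replicate could be left out. Low counts limit Aldh1a1, and the 35 cells of cluster 18 at 12 dpa are too few for a level.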

Other observations

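Unnamed cluster 29, led by Hhip, Gpc5, Rorb and Rspo3, held 57 cells in all, 35 of them at 28 dpa, too few for a level by library. Pooled over the libraries, it held Crabp1 at 744 CPM (250 UMIs), Cyp26b1 at 325, Crabp2 at 158, Aldh1a3 at 134, Rarg at 86.3 and Rarb at 74.4 CPM. No UMI of Rbp4, Aldh1a1 or Aldh1a2 was found there. The Crabp1 and Cyp26b1 levels were above those of every class and cluster of at least 50 cells in the same gene. Its nearest class by markers was fibroblast-like, with 4 markers detected, and it stayed unnamed. As the cells come mainly from 1 library, the values may describe that library.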
